A study of Mus musculus with 24 samples.

Results

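Messenger RNA of 27 genes of cholesterol synthesis and of its control by the transcription factor SREBP2 was followed in the cortex of 24 mice that carried an inducible TREM2 construct. The 27 genes were taken by symbol from the deposited gene count table, which lists 43346 genes, and all 27 were among the 19678 genes with enough reads to be tested. Microglia, the macrophages that live in brain tissue, carry the receptor TREM2 on their surface, where it binds lipids, and people with its R47H variant develop Alzheimer's disease more often. The 4 groups, each of 6 C57BL/6 mice, were induced R47H mice (genotype TREM2-R47H+/+; Cx3cr1CreER/+, given tamoxifen), control R47H mice (the same genotype, given corn oil), induced WT mice (genotype TREM2-WT+/+; Cx3cr1CreER/+, given tamoxifen) and control WT mice (that genotype, given corn oil). Each group held 3 males and 3 females according to the series text, but the labels used here give neither the sex of a single library nor the age of the mice. Every mouse carried CreER under Cx3cr1, a gene of microglia and other myeloid cells, and a TREM2 construct, so an effect of tamoxifen itself and an effect of TREM2 induction cannot be told apart. R47H and WT mice are separate lines, so the variant and any other difference between the lines cannot be told apart either.

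SREBP2, encoded by Srebf2, is made as a membrane protein of the endoplasmic reticulum. SCAP carries it to the Golgi when membrane sterol is low, INSIG1 and INSIG2 hold the pair back when sterol is plentiful, and the proteases encoded by Mbtps1 and Mbtps2 release the active fragment, which binds sterol regulatory elements in front of the genes of the pathway. The blood-brain barrier keeps plasma cholesterol out of the brain, so brain cells make their own, astrocytes supply much of it to adult neurons, and the neuronal enzyme CYP46A1 hydroxylates cholesterol into a form that can leave the brain.

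The libraries held 27933505 to 56082520 counts in induced R47H mice, 31025034 to 39902640 in control R47H mice, 33759496 to 46904559 in induced WT mice and 33742812 to 43961714 in control WT mice. Mouse Trem2 had 6.62 ± 0.534 CPM (the count scaled to a common library size) in induced R47H cortex, 7.89 ± 0.974 in control R47H cortex, 6.61 ± 1.43 in induced WT cortex and 6.40 ± 0.367 in control WT cortex (mean ± SD, n = 6 each), and it passed the test in none of the comparisons. No row of the table is named for human TREM2, so the counts of mouse Trem2 do not check the induction labels. All marker genes of neurons, astrocytes, oligodendrocytes, microglia and cortical layers were detected in every library, and so were the striatal and choroid plexus markers, which are not cortical. The summed choroid plexus markers ranged over all libraries between 13.9 and 614.5 CPM. Replicate 6 of the induced WT mice stood apart in its microglia markers, whose sum reached 303 CPM in the induced WT group against a group median of 216 CPM. The labels do not say whether mice shared a litter, a cage or a preparation day, so p-values measure the spread between these animals only.

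Sequences in front of the genes are shown for the members on which the results below turn, so that the elements named by the pathway can be seen. They come from RefSeq on the mouse build GRCm38.p6, which had a promoter entry for 23 of the 27 genes; Fdft1, Fdps, Sqle and Stard4 had none. Each line reads 5′ to 3′ on the strand of the gene. Capitals mark the sterol regulatory element TCACNCCAC and the CCAAT box, written CCAAT or, in reverse complement, ATTGG. The stretch in front of Hmgcs1 is chr13:119690164-119690263 (plus strand), that of Srebf2 chr15:82147084-82147183 (plus), that of Insig1 chr5:28071162-28071245 (plus), that of Cyp46a1 chr12:108334113-108334212 (plus) and that of Hsd17b7 chr1:169969206-169969305 (minus).
Hmgcs1: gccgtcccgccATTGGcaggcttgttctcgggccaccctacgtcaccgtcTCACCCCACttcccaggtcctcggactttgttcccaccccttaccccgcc
Srebf2: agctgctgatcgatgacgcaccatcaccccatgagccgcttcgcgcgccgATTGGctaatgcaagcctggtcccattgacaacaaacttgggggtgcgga
Insig1: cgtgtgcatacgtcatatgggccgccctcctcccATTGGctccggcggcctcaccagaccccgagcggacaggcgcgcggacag
Cyp46a1: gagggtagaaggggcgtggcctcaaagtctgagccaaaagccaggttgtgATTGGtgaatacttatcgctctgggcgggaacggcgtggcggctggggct
Hsd17b7: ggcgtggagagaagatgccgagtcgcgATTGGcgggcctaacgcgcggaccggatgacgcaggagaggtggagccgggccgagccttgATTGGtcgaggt

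The 250 bases before the annotated start were searched on both strands for the sterol regulatory element, the CCAAT box and the GC box. The 23 members had 29 promoter entries, and a match in any entry of a gene was counted. For 22 of the 29, the bases after the start were found in a GENCODE transcript of the gene. The sterol element, spelled TCACNCCAC, was found in 1 of the 23 members, Hmgcs1, where it begins 137 bases before the start, a share of 4.35% against 1.22% of all 27025 genes in the promoter table. A CCAAT box was found in 20 of 23 members (87%), against 37.5% of all genes with a promoter entry and 39.4% of the 12540 that were also tested. The genes without it were Scap, Mbtps1 and Mbtps2, which encode the carrier and the proteases of SREBP2, while the other control genes, Srebf2, Insig1 and Insig2, had it. A GC box, spelled CCGCCC, was found in 20 of 23 members (87%), against 35.4% of all genes and 59.1% of the tested genes. Many bound elements differ from these letters, so a missing match says only that these letters are not in this window.

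Levels were compared between genes as RPKM, here the CPM divided by the length of the gene model in kilobases, so the order of genes depends on that length. All values in this paragraph are means of 24 libraries. Hmgcs1, which encodes the cytosolic HMG-CoA synthase at the entry to the mevalonate pathway, had the highest level of the 27 with 82.3 ± 7.24 RPKM (SD, n = 24), above 98.4% of tested genes. Cyp46a1 came next with 74.1 ± 3.07 RPKM, and Srebf2 followed with 43.5 ± 1.55 RPKM. Among the other control genes, Scap had 19.3 RPKM, Mbtps1 17.6 RPKM, Insig1 17.6 RPKM, Insig2 11.02 RPKM and Mbtps2 3.59 RPKM. The gene model of Mbtps2 has 10105 bases, against 4797 in its longest transcript. Of the later mevalonate enzymes, which turn HMG-CoA-derived mevalonate into farnesyl diphosphate, Fdps (farnesyl diphosphate synthase) had 17.4 RPKM, Pmvk (phosphomevalonate kinase) 13.5 RPKM, Mvd (mevalonate diphosphate decarboxylase) 7.90 RPKM and Mvk (mevalonate kinase) 5.37 RPKM. Idi1, the isopentenyl diphosphate isomerase, was the lowest of the 27 with 1.54 ± 0.197 RPKM. Of its longest transcript, 33.3% matches transcripts of other genes, which may affect its count. Ggps1, which leads from farnesyl diphosphate to protein prenylation instead of sterols, had 13.6 RPKM.

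The enzymes that make and close squalene differed widely in RPKM but less in CPM. Fdft1, squalene synthase, had 20.5 RPKM, Sqle, the rate-limiting squalene epoxidase, 10.5 RPKM, and Lss, lanosterol synthase, 3.73 RPKM. Their gene models have 2860, 5546 and 10787 bases, and the longest Lss transcript has 6992. In induced WT mice, for example, the 3 genes averaged 58.7, 57.2 and 39.6 CPM. Among the enzymes that turn lanosterol into cholesterol, Sc5d (a sterol desaturase) had 17.1 RPKM, Cyp51 (lanosterol demethylase) 11.3 RPKM, Msmo1 (a sterol methyl oxidase) 10.2 RPKM and Dhcr7 (the reductase of the last step of its route) 7.0 RPKM. Nsdhl (a sterol dehydrogenase) had 5.84 RPKM, Hsd17b7 (a keto-sterol reductase) 4.22 RPKM and Ebp (a sterol isomerase) 4.0 RPKM. The paired sterol reductases Tm7sf2 and Lbr, of which the protein LBR also anchors chromatin to the nuclear lamina, had 4.59 and 2.57 RPKM. Stard4, a carrier of free cholesterol between membranes, had 7.41 RPKM. In the order of levels, 4 genes (Cyp46a1, Srebf2, Mbtps2 and Lbr) had library ranges that did not overlap that of the next lower gene; all other neighbours in the order overlapped.

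**Figure D1:**
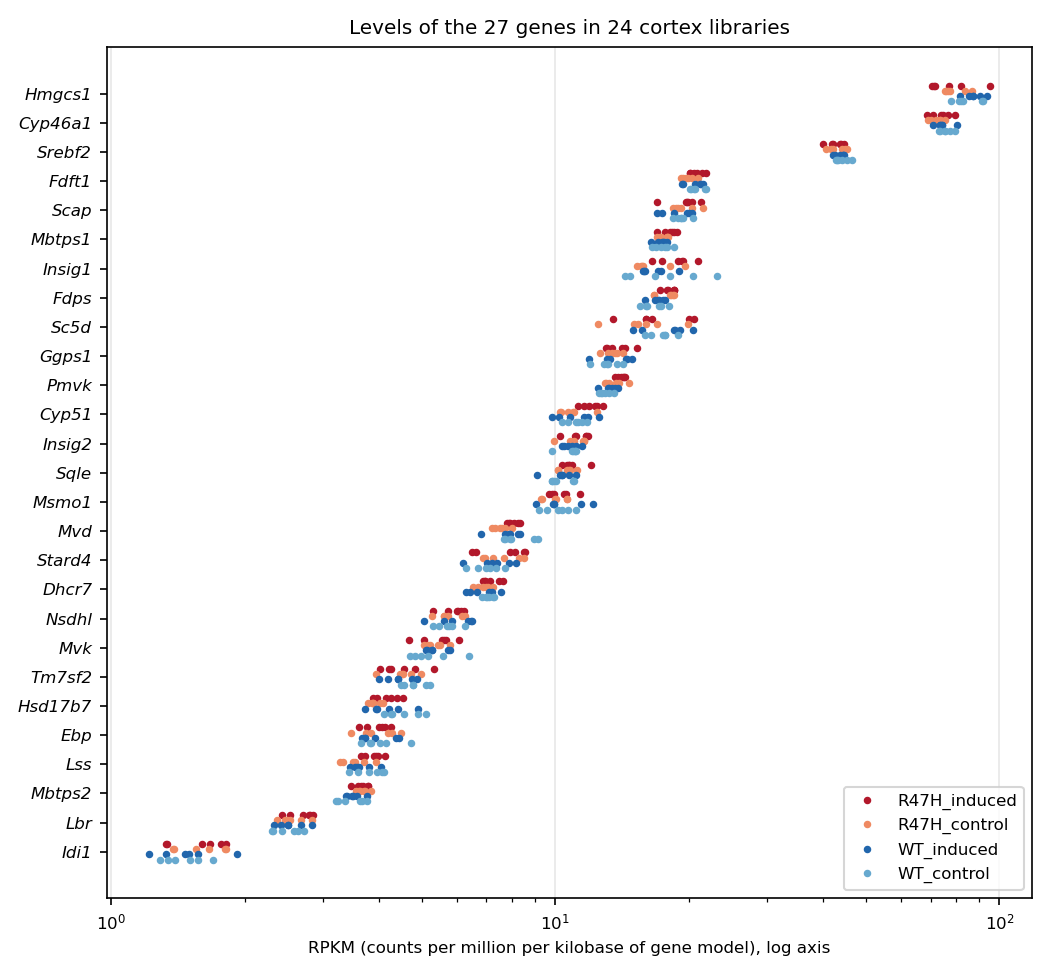
Level of each of the 27 genes in each of the 24 libraries, as RPKM on a log axis, with genes in rows from the highest to the lowest mean and groups told apart by colour. Hmgcs1 and Cyp46a1 lie near the top of the range with 82.3 and 74.1 RPKM on average, Idi1 lies lowest with 1.54 RPKM, and the groups set against each other overlap for every gene except Hsd17b7 in control R47H and control WT mice.

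These levels varied little from mouse to mouse. The biological coefficient of variation estimated by edgeR had a median of 6.22% over the 27 genes, against 8.04% over all tested genes. Of all tested genes, 35.3% lay below that median of the 27, and genes were not matched for level. It was lowest for Mbtps1 (3.82%) and highest for Sc5d (12.2%), Idi1 (11.7%) and Insig1 (11.6%). The summed level of the 27 genes was 1446 to 1523 CPM in induced R47H mice, 1443 to 1472 CPM in control R47H mice, 1447 to 1530 CPM in induced WT mice and 1451 to 1547 CPM in control WT mice. In bulk tissue fewer cells of a type and less RNA per cell cannot be told apart. Some counts may include reads of other genes, or lack reads that also match another gene. Exons of Mbtps2 (28.4% of exon bases), Fdps (26.7%) and Tm7sf2 (12.1%) overlap a gene on the same strand. Those of Fdft1 (18.3%), Scap (13.2%) and Hmgcs1 (12.1%) overlap a gene on the opposite strand, and the library kit does not mark strand. In sequence, 54.7% of the longest Fdft1 transcript and 33.3% of that of Idi1 match transcripts of other genes at 95% identity or more. The share was 27.3% for Ggps1, 18.9% for Scap, 16.7% for Fdps and 16.2% for Hmgcs1, and at most 12.5% for any other member. Hsd17b7 has no such overlap or match.

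The first comparison asked whether tamoxifen changed the pathway in mice with the R47H construct. None of the 27 genes passed the test at an adjusted p of 0.05 (edgeR quasi-likelihood test, Benjamini-Hochberg over 19678 genes), and neither did any other gene, so the background share of called genes was 0%. Lss had 39.3, 42.3 and 44.6 CPM (lowest, median and highest of 6 libraries) in induced R47H mice and 35.4, 38.0 and 42.5 CPM in control R47H mice. Cyp51, whose product removes a methyl group from lanosterol, had 48.2, 52.0 and 54.9 CPM in induced R47H mice and 44.0, 46.4 and 53.3 CPM in control R47H mice. The induced mice lay mostly above the control mice for both genes, and the groups overlapped. The log2 fold changes were 0.13 (SE 0.05, adjusted p = 0.945, edgeR) for Lss and 0.14 (SE 0.05, adjusted p = 0.945, edgeR) for Cyp51. These 2 of 27 genes were those with an unadjusted p under 0.05, a share set beside 5.11% of all tested genes.

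The other members of the pathway gave smaller or less certain differences between induced and control R47H mice. Insig1, itself a target of SREBP2 and a brake on it, averaged 50.5 ± 4.33 CPM in induced R47H mice and 45.01 ± 4.78 CPM in control R47H mice (SD, n = 6 each), a log2 fold change of 0.17 with a 95% interval of -0.04 to 0.37. Srebf2 had a log2 fold change of -0.02 (95% interval -0.08 to 0.05) and Hmgcs1 of -0.03 (-0.15 to 0.10). Both intervals thus stop short of the size seen for Insig1. The log2 fold change was above 0 for 22 of 27 genes with a median of 0.04, against 52.7% of all tested genes with a median of 0.004. Scaled by library totals, it was above 0 for all 27 members, with a median of 0.09 against 0.06 for all tested genes. No member had groups free of overlap, beside 0.34% of all tested genes, and 25 of 27 intervals lay within 0.25 of 0 on the log2 scale.

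Tamoxifen in mice with the WT construct likewise left no member past the test. None of the 27 genes, and 0% of all tested genes, passed an adjusted p of 0.05. The lowest adjusted p among members was 0.663 (edgeR), for Hsd17b7, a reductase of the late pathway, with 19.0, 20.9 and 25.1 CPM (lowest, median and highest) in induced WT mice and 20.99, 22.6 and 26.1 CPM in control WT mice. Those groups overlapped over most of their range, and the log2 fold change was -0.11 (95% interval -0.23 to 0.01). Tm7sf2, a sterol reductase, averaged 15.5 ± 1.15 CPM in induced WT mice and 16.8 ± 1.03 CPM in control WT mice (SD, n = 6 each), a log2 fold change of -0.12 (95% interval -0.25 to 0.01).

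For the main regulators in WT mice, the log2 fold change was -0.02 for Srebf2 (95% interval -0.08 to 0.05), -0.03 for Scap (-0.13 to 0.07), -0.09 for Insig1 (-0.29 to 0.11) and 0.05 for Hmgcs1 (-0.07 to 0.18). No member had an unadjusted p under 0.05, beside 7.85% of all tested genes, and none had groups free of overlap, beside 0.234%. The log2 fold change was above 0 for 15 of 27 members with a median of 0.004, against 50.9% and 0.001 for all tested genes. Scaled by library totals it was above 0 for 5 members, with a median of -0.04 equal to that of all tested genes, and without the induced WT replicate 6 it was above 0 for 9. Of the 27 intervals 24 lay within 0.25 of 0 on the log2 scale.

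The difference between the induction responses, R47H minus WT, was tested as its own contrast. It passed an adjusted p of 0.05 for no member, beside 0% of all tested genes, and came nearest for Lss. The difference in log2 fold change was 0.19 for Lss (SE 0.07, adjusted p = 0.562, edgeR), 0.21 for Hsd17b7 (SE 0.08, adjusted p = 0.588, edgeR) and 0.16 for Mvd (SE 0.07, adjusted p = 0.616, edgeR). These 3 enzymes, which act at separate steps of the pathway, were the members with an unadjusted p under 0.05, beside 7.94% of all tested genes. For Insig1 the difference was 0.26, with a 95% interval of -0.03 to 0.54. The intervals of the other 26 lay within 0.5 of 0, and those of 17 within 0.25.

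**Figure D2:**
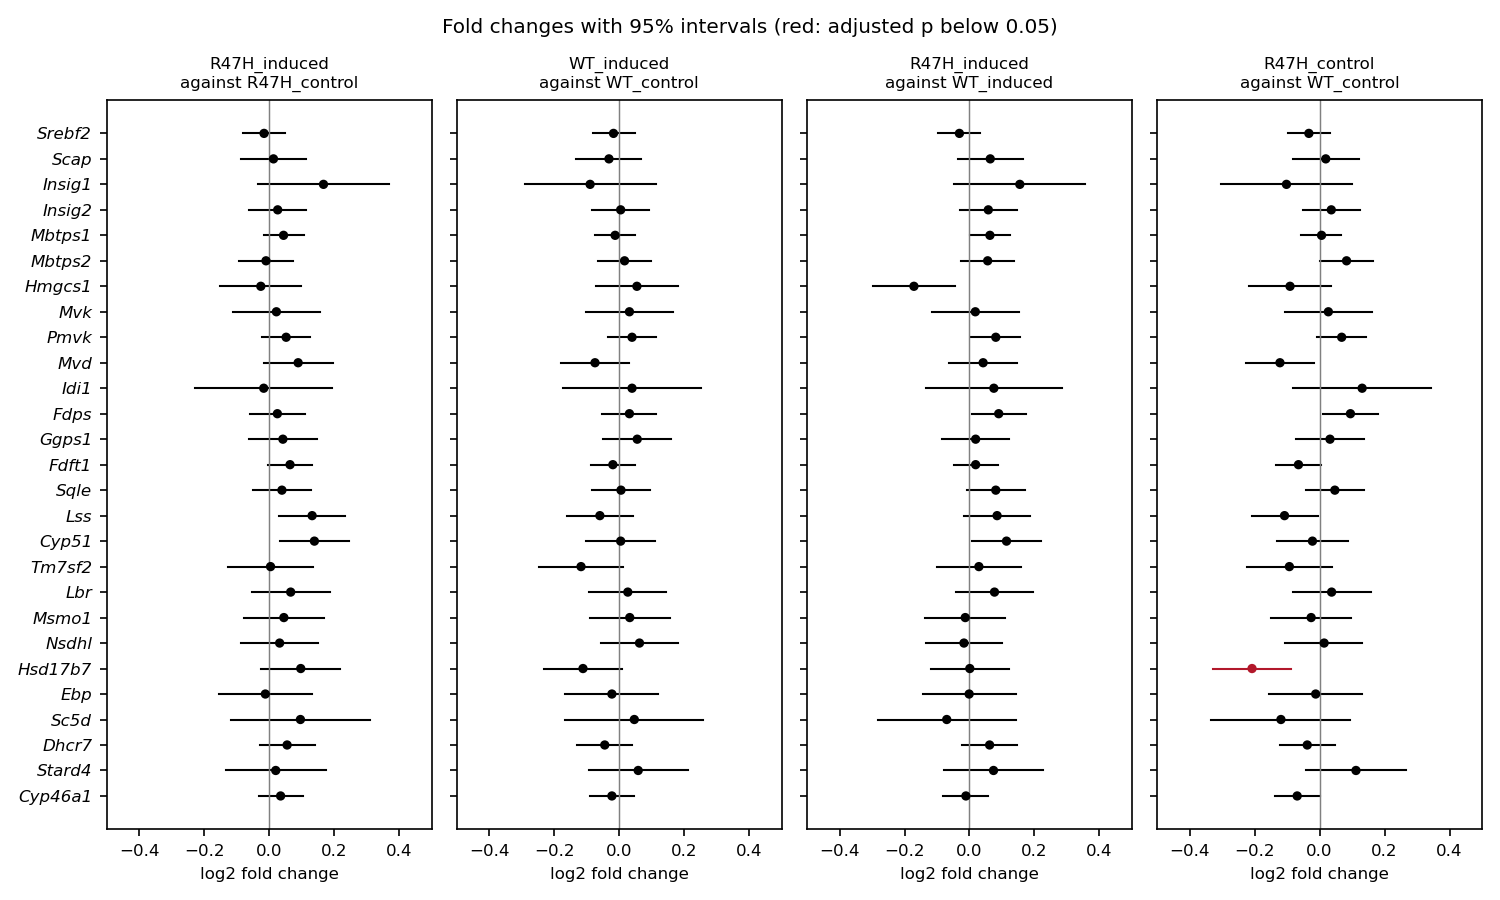
Log2 fold change of each of the 27 genes in 4 comparisons, with genes in rows ordered by role; points are edgeR estimates and lines their 95% intervals. The 1 gene in red, Hsd17b7 in control R47H against control WT mice, is the member with an adjusted p below 0.05; the intervals of all genes in these 4 comparisons lie within 0.5 of 0.

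Between the constructs after tamoxifen, induced R47H against induced WT mice, no member passed the test, although 5.8% of all tested genes did (1142 genes). Hmgcs1 came nearest. It had 227.5, 239.6 and 308 CPM (lowest, median and highest of 6 libraries) in induced R47H mice and 263, 282.5 and 304 CPM in induced WT mice. All but 2 of the induced R47H libraries lay below every induced WT library, while replicate 1 of the induced R47H mice held the highest value of both groups, so the groups overlapped. Its log2 fold change was -0.17 (SE 0.06, 95% interval -0.30 to -0.05, adjusted p = 0.1, edgeR). Without replicate 1 of the induced R47H mice it was -0.24 with an adjusted p of 0.00389 (edgeR).

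The remaining enzymes of the mevalonate pathway had estimates above 0 in induced mice, and none passed the test. Fdps averaged 22.5 ± 0.637 CPM in induced R47H mice and 21.1 ± 0.786 CPM in induced WT mice (SD, n = 6 each), and Pmvk averaged 21.3 ± 0.442 CPM in induced R47H mice and 20.1 ± 0.71 CPM in induced WT mice. Their log2 fold changes were 0.09 (SE 0.04, adjusted p = 0.208, edgeR) and 0.08 (SE 0.04, adjusted p = 0.205, edgeR). Cyp51 had 48.2, 52.0 and 54.9 CPM in induced R47H mice and 42.2, 48.0 and 53.8 CPM in induced WT mice, which overlapped, with a log2 fold change of 0.11 (SE 0.05, adjusted p = 0.216, edgeR). Mbtps1, the protease that makes the first cut in SREBP2, averaged 78.9 ± 2.81 CPM in induced R47H mice and 75.5 ± 2.14 CPM in induced WT mice, a log2 fold change of 0.06 (SE 0.03, adjusted p = 0.238, edgeR). With Hmgcs1, these were the 5 of 27 members with an unadjusted p under 0.05, beside 20.1% of all tested genes.

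Of the regulators, Srebf2 averaged 213 ± 8.65 CPM in induced R47H mice and 218 ± 4.92 CPM in induced WT mice, a log2 fold change of -0.03 (95% interval -0.10 to 0.03). Insig1 averaged 50.5 ± 4.33 CPM in induced R47H mice and 45.4 ± 3.39 CPM in induced WT mice, a log2 fold change of 0.15 (-0.05 to 0.36). Hsd17b7 averaged 21.4 ± 1.27 CPM in induced R47H mice and 21.4 ± 2.17 CPM in induced WT mice, with an interval of -0.12 to 0.12. No member had groups free of overlap, beside 3.25% of all tested genes. The log2 fold change was above 0 for 20 of 27 members with a median of 0.06, against 50.5% and 0.002 for all tested genes. Scaled by library totals it was above 0 for 25 members, with a median of 0.09 against 0.03. Beside these values, 2 of 6 striatal markers were called lower in induced R47H mice, and their summed level was 831.5 to 977.5 CPM in induced R47H mice against 1000 to 1099 CPM in induced WT mice, without overlap. With the mean log2 CPM of the 6 striatal markers as a covariate, Mbtps1 was called (log2 fold change 0.12, adjusted p = 0.0316, edgeR) and Hmgcs1 was not.

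Without tamoxifen, control R47H against control WT mice, Hsd17b7 was the 1 member of 27 that passed the test, beside 5.74% of all tested genes (1129 genes). It had 19.4, 19.7, 19.8, 20.9, 20.6 and 19.9 CPM in the 6 control R47H mice and 21.9, 21.7, 26.1, 23.3, 25.0 and 20.99 CPM in the 6 control WT mice. Every control R47H library lay below every control WT library, by a narrow margin between 20.9 and 20.99 CPM. Hsd17b7 fell by 0.21 on the log2 scale (SE 0.06, 95% interval -0.33 to -0.09, adjusted p = 0.0329, edgeR). It was also the 1 member whose groups did not overlap, beside 3.18% of all tested genes. Whether this differed from induced mice, where its estimate was near 0, is the contrast of the inductions above, which did not pass (0.21, adjusted p = 0.588, edgeR).

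The Hsd17b7 call lay close to its threshold. It was lost without any 1 of 3 control WT libraries (replicates 3, 4 and 5) or of 4 control R47H libraries (replicates 1, 2, 3 and 6). The log2 fold change over those fits ran from -0.21 to -0.17, and it was -0.17 with an adjusted p of 0.0818 (edgeR) without control WT replicate 3. With the share of ribosomal-like RNA as a covariate it was -0.25 (adjusted p = 0.0544, edgeR), with oligodendrocyte markers -0.17 (adjusted p = 0.0722, edgeR) and with striatal markers -0.20 (adjusted p = 0.173, edgeR). The unadjusted p was 0.00131 with the ribosomal-like share and 0.00144 without a covariate (edgeR). Of all tested genes, 451, 1392 and 391 were called with these covariates in turn, beside 1129 without one. The share of counts of the ribosomal-like genes Yam1, AY036118 and Lars2 was 17.1% to 24.4% in control R47H mice and 11.5% to 20.1% in control WT mice. The summed striatal markers were 832 to 951.5 CPM in control R47H mice and 917.5 to 1074 CPM in control WT mice, with 3 of 6 called lower, and the summed oligodendrocyte markers were 2940 to 3553 CPM in control R47H mice and 3089 to 3747 CPM in control WT mice, with none called.

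**Figure D3:**
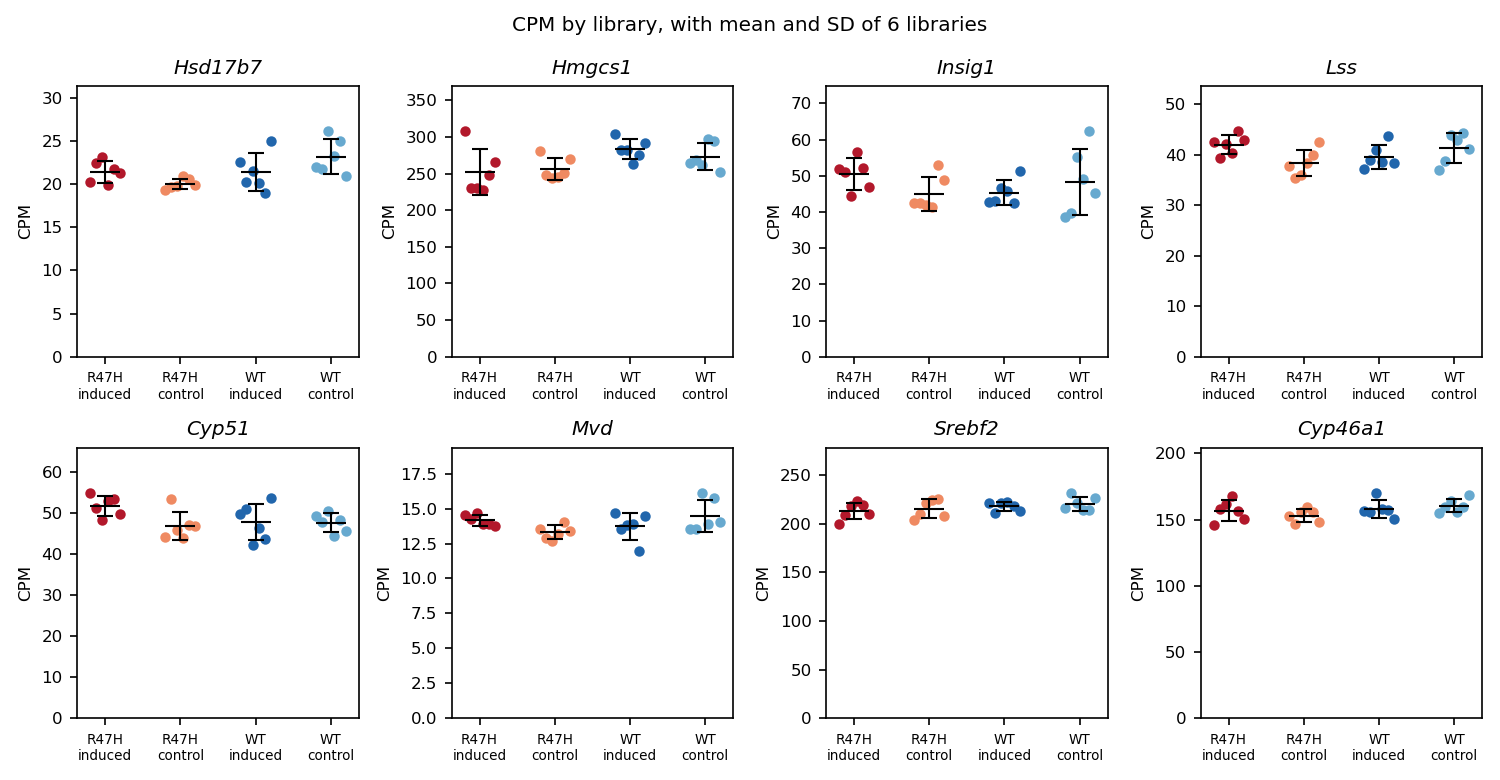
CPM of 8 of the 27 genes in each library, by group, with the mean and SD of 6 libraries; each axis starts at 0. For Hsd17b7 the 6 control R47H points (19.4 to 20.9 CPM) lie below the 6 control WT points (20.99 to 26.1 CPM), and for Hmgcs1 replicate 1 of the induced R47H mice (308 CPM) stands above the other 5 of its group.

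Hsd17b7 lies on mouse chromosome 1, at positions 169949535 to 169969241 of the build mm10, in a stretch where many genes differed between the lines. Within 2 Mb of its start 56 other genes were tested. Of these, 14 (25%) were called in induced R47H against induced WT mice, 3 of them higher, and 18 (32.1%) were called in control R47H against control WT mice, 7 of them higher. Those shares stand beside 5.8% and 5.74% of all tested genes, and for no other member did the share within 2 Mb exceed 25%. Rgs4, a regulator of G-protein signalling, had log2 fold changes of -0.30 in induced mice and -0.29 in control mice. Nos1ap, an adaptor of neuronal nitric oxide synthase, had -0.13 in induced mice and -0.20 in control mice, and Usf1, a transcription factor, had 0.25 in induced mice and 0.21 in control mice. All 3 were called in both comparisons. Called genes that start about 0.02 Mb from it on either side went opposite ways in control mice. Their log2 fold changes were 0.40 for Gm15852, 0.38 for 1700084C01Rik and -1.48 for 3110045C21Rik. Ddr2, at a like distance, was not called (-0.06, adjusted p = 0.736, edgeR). The part of the chromosomal position in the Hsd17b7 result was not tested.

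**Figure D4:**
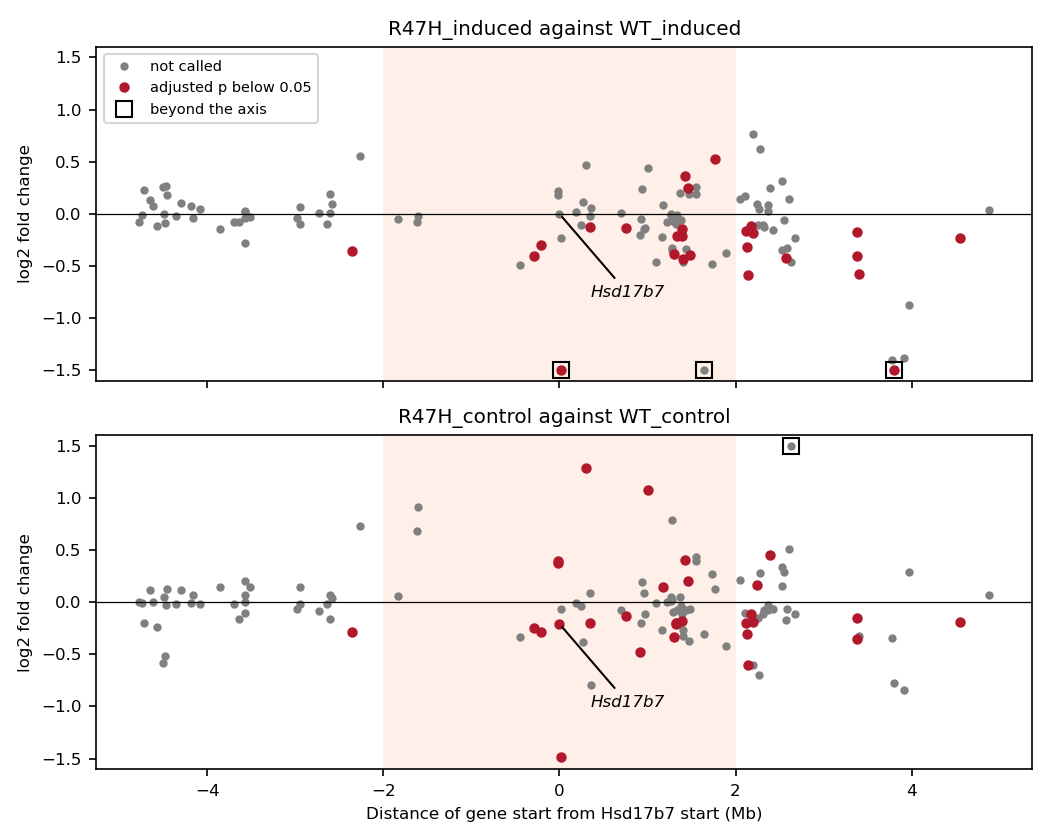
Log2 fold change of tested genes around Hsd17b7 against the distance of their start from that of Hsd17b7 in Mb, in induced mice (upper panel) and control mice (lower panel); shading marks 2 Mb on either side and squares mark values beyond the axis. In the shaded stretch 14 neighbours in the upper panel and 18 in the lower panel have an adjusted p below 0.05, in red, and Hsd17b7 is among the red points in the lower panel.

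Other members gave differences between control R47H and control WT mice that did not pass the test. Of the early enzymes, Mvd averaged 13.3 ± 0.497 CPM in control R47H mice and 14.5 ± 1.16 CPM in control WT mice (log2 fold change -0.12, SE 0.05, adjusted p = 0.164, edgeR). Fdps averaged 22.1 ± 1.06 CPM in control R47H mice and 20.7 ± 1.18 CPM in control WT mice (0.10, SE 0.04, adjusted p = 0.176, edgeR). Mvd was called with library totals in place of TMM scaling (log2 fold change -0.18, adjusted p = 0.0444, edgeR), so its call depends on the scaling.

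Lss averaged 38.3 ± 2.65 CPM in control R47H mice and 41.3 ± 2.96 CPM in control WT mice, a log2 fold change of -0.11 (SE 0.05, adjusted p = 0.212, edgeR). Cyp46a1 averaged 153 ± 4.95 CPM in control R47H mice and 160.5 ± 5.03 CPM in control WT mice, a log2 fold change of -0.07 (SE 0.03, adjusted p = 0.242, edgeR). Mbtps2, the protease of the second cut in SREBP2, averaged 37.2 ± 1.04 CPM in control R47H mice and 35.2 ± 2.49 CPM in control WT mice, with 0.08 (SE 0.04, adjusted p = 0.242, edgeR). With Hsd17b7 these 6 members had an unadjusted p under 0.05, beside 20.5% of all tested genes, and 4 of them were lower in control R47H mice. Hmgcs1 averaged 256 ± 15.2 CPM in control R47H mice and 273 ± 18.8 CPM in control WT mice, with a log2 fold change of -0.09 (95% interval -0.22 to 0.03). The log2 fold change was above 0 for 13 of 27 members with a median of -0.01, against 49.5% and -0.001 for all tested genes; scaled by library totals it was above 0 for 5, with a median of -0.07 against -0.06. These comparisons share groups with each other, so their values are given side by side and their likeness is not a result.

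Mouse-to-mouse variation within groups was then compared between Hmgcs1 and the other 26 genes. Values were deviations of log2 CPM from the group means over 24 libraries, with a two-sided permutation test (100000 permutations, Benjamini-Hochberg over 26). The permutations crossed groups after the group means had been removed, so the p-values are somewhat too low. Whether Mbtps2, Tm7sf2 and Mvk pass is therefore uncertain, as their adjusted p lay nearest 0.05 among those that passed. Only 1 of the 26, Mbtps2, had a positive correlation that passed (r = 0.52, rho = 0.53, permutation p = 0.00818, adjusted p = 0.0425, and r = 0.56 without the 2 libraries farthest from the median of Hmgcs1). Srebf2 had the strongest negative one (r = -0.67, rho = -0.62, permutation p = 0.00026, adjusted p = 0.00641, and r = -0.50 without those 2 libraries). Cyp46a1 (r = -0.65, rho = -0.63, permutation p = 0.00055, adjusted p = 0.00641, and -0.58 without them) and Scap (r = -0.65, rho = -0.54, permutation p = 0.00074, adjusted p = 0.00641, and -0.47 without them) were close to it. Tm7sf2 (r = -0.56, rho = -0.53, permutation p = 0.00432, adjusted p = 0.0281, and -0.52 without them) and Mvk (r = -0.52, rho = -0.44, permutation p = 0.0106, adjusted p = 0.0458, and -0.41 without them) also passed. Where Hmgcs1 was high within its group, the RNA of its own regulator Srebf2 and of the carrier Scap was thus lower in these libraries.

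These 6 correlations rest on few libraries. None passed without replicate 1 of the induced R47H mice, in which Hmgcs1 lay 0.30 above its group on the log2 scale, 3 passed without replicate 6 of the control WT mice, and none passed when libraries were scaled by their totals. Sqle, Idi1 and Insig1, also known targets of SREBP2, gave correlations with Hmgcs1 that did not pass. The value of r was 0.07 for Sqle (rho = 0.12, permutation p = 0.732, adjusted p = 0.853), 0.04 for Idi1 (rho = -0.05, permutation p = 0.841, adjusted p = 0.874) and 0.19 for Insig1 (rho = 0.19, permutation p = 0.369, adjusted p = 0.639). Msmo1 came nearest among the late enzymes (r = 0.47, rho = 0.39, permutation p = 0.0194, adjusted p = 0.0722). Hmgcs1 and Insig1 were also set against 11 measures that libraries share, 22 relations in all, with the same kind of permutations across groups. Hmgcs1 against the total count gave r = -0.51 (rho = -0.29, permutation p = 0.0113, adjusted p = 0.108, and r = -0.22 without the 2 farthest libraries). Insig1 against the choroid plexus markers gave r = -0.68 (rho = -0.54, permutation p = 0.00021, adjusted p = 0.00462, and r = -0.62 without the 2 farthest libraries), although rho did not pass (adjusted p = 0.164).

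**Figure D5:**
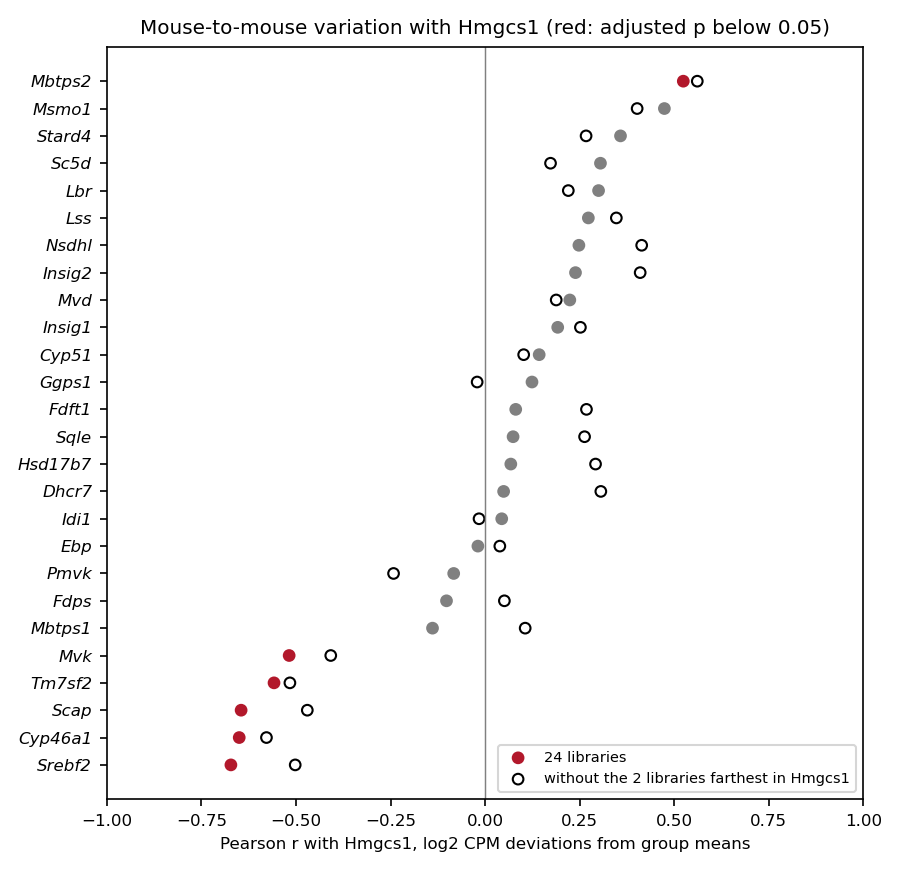
Pearson correlation of 26 genes with Hmgcs1 within groups, over 24 libraries (filled points) and without the 2 libraries farthest from the median of Hmgcs1 (open points). Mbtps2 (0.52) stands at the top and Srebf2 (-0.67) at the bottom, and the 6 red points are those with an adjusted p below 0.05.

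Genes next to the pathway were followed in 4 further lists, none of which had a gene called after induction within R47H or within WT mice. Of 9 genes for sterol-regulated protein degradation in the endoplasmic reticulum, none was called in any comparison (edgeR), beside 5.8% of all tested genes in induced R47H against induced WT mice and 5.74% in control R47H against control WT mice. In each of these comparisons 2 of the 9 had an unadjusted p under 0.05. At that threshold the share of all tested genes was 20.1% in induced and 20.5% in control mice. In the list of 14 genes of the oxysterol receptor LXR, sterol efflux and storage, 2 were called higher and 1 lower in both comparisons of R47H with WT mice, beside the same 5.8% and 5.74% of all tested genes. Cyp39a1, an oxysterol hydroxylase, rose with 3.12 ± 0.66 CPM in induced R47H mice and 2.16 ± 0.39 CPM in induced WT mice (log2 fold change 0.52, SE 0.14, adjusted p = 0.0216, edgeR), and with 3.26 ± 0.439 CPM in control R47H mice and 1.94 ± 0.351 CPM in control WT mice (0.75, SE 0.14, adjusted p = 0.0013, edgeR). Abcg4, a sterol efflux transporter of neural cells, fell by 0.15 in induced mice (adjusted p = 0.0321, edgeR) and by 0.14 in control mice (adjusted p = 0.0474, edgeR). The other called members of this list were Nr1h2, which encodes LXR-beta, in induced mice (0.15, adjusted p = 0.0289, edgeR) and Soat1, which esterifies cholesterol, in control mice (0.19, adjusted p = 0.0145, edgeR). Neighbouring genes were not examined for Cyp39a1 or the rest of this list, so the part of chromosomal position was not tested.

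Of 12 genes of SREBP1 and fatty acid synthesis, 2 were called, both higher, in each comparison of R47H with WT mice, beside 5.8% of all tested genes in induced and 5.74% in control mice. Me1, malic enzyme, had 28.9, 33.6 and 36.5 CPM in induced R47H mice and 26.5, 27.8 and 28.9 CPM in induced WT mice, a narrow overlap, with a log2 fold change of 0.26 (SE 0.05, adjusted p = 0.00126, edgeR). In control mice it had 32.6, 34.1 and 35.8 CPM with R47H and 25.0, 27.5 and 30.3 CPM with WT, without overlap, a log2 fold change of 0.31 (SE 0.05, adjusted p = 0.000266, edgeR). Elovl5, a fatty acid elongase, had log2 fold changes of 0.15 in induced mice (adjusted p = 0.0482, edgeR) and 0.22 in control mice (adjusted p = 0.0036, edgeR). Of 12 genes of the isoprenoid branch, Zmpste24, the protease that matures prelamin A, rose in control R47H mice (log2 fold change 0.17, adjusted p = 0.0226, edgeR), beside 5.74% of all tested genes, and no other was called. Of these 4 lists as wholes, the median log2 fold change in induced R47H against induced WT mice ran from -0.05 (LXR) to 0.04 (protein degradation), and in control R47H against control WT mice from -0.015 (protein degradation) to 0.05 (LXR).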

How the data were processed

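Poly(A)-selected RNA from mouse cortex was sequenced, per the labels' protocols, with the TruSeq RNA Sample Prep Kit v2. STAR 2.5.2b, featureCounts 1.5.1 and the build mm10 appear in the submitters' processing notes. Neither the annotation release nor the strand option is stated there. The deposited values are raw counts per gene, with all 24 libraries in 1 table. Groups came from the genotype and treatment labels, and replicates were numbered in accession order. Counts were filtered with filterByExpr, scaled by TMM and fitted in edgeR 4.0.16 with robust glmQLFit over 24 libraries and 1 mean per group; glmQLFTest p-values were adjusted over 19678 genes and called below 0.05. Within groups, no pair of libraries agreed within sampling noise (chi-square per degree of freedom at least 4.31). The fit was tested on simulated data. Alternatives used other scalings, no filter, DESeq2 1.42.0, limma-voom 3.58.1, 12 libraries, covariates, a threshold of 0.1 and leaving out each library. The rule for named genes took all members and, of each companion list, the called genes or otherwise the 2 with the lowest p. Overlaps and matching transcripts (blastn 2.17.0, at least 100 bases) came from the GENCODE annotation of the reference. The members and lists were chosen with earlier results of these data known. A list of other SREBP2 targets is not reported here.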

Additional observations from a re-analysis of the deposited data

Results flagged for a closer look

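Each of the 27 genes was screened in each of the 4 groups, 108 in all, for a library far from the other 5, and 4 were found; chance alone gives about 1 in 20. Sqle, the squalene epoxidase, had 66.8 CPM in replicate 5 of the induced R47H mice, and 57.5 to 60.4 CPM in the other 5. Cyp51, lanosterol demethylase, had 53.3 CPM in replicate 2 of the control R47H mice, and 44.0 to 47.1 CPM in the others. Cyp46a1, the enzyme of cholesterol turnover in neurons, had 170 CPM in replicate 3 of the induced WT mice, and 150.3 to 157.7 CPM in the others. Insig2, a brake on SREBP2, had 34.2 CPM in replicate 6 of the control WT mice, and 37.9 to 38.6 CPM in the others. The 4 values came from 4 different mice and 4 different groups.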

How the results depend on the processing

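The number of members called stayed at 0 under every alternative in induced against control R47H mice, in induced against control WT mice and for the difference between these inductions, leave-one-out fits included (0 to 0). In induced R47H against induced WT mice it was 0, and 1 with striatal markers as a covariate (Mbtps1) or a range of 0 to 1 over fits that each left out 1 library (Hmgcs1, without induced R47H replicate 1). In control R47H against control WT mice it was 1, Hsd17b7, and 2 with library totals (Mvd added), 0 with limma-voom (Hsd17b7 adjusted p = 0.0506, limma), 0 with the ribosomal-like share, oligodendrocyte markers or striatal markers as a covariate, and 0 to 1 over fits that left out 1 library. The number of members correlated with Hmgcs1 was 6, and 0 with library totals, with 0 to 7 over fits that left out 1 library; the cause of these changes was not tested. No called value changed sign. No paired analysis was possible because the labels number each sample once and give no replicate number, litter or batch shared between groups. Precision was lowest where counts were few or mice varied most: Idi1 had 5010 counts over the 24 libraries, and Sc5d had the widest intervals in all 5 contrasts.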
